A study of Mus musculus with 6 samples.

Results

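The EGR and IER immediate early genes form a set of 9 genes in mouse alveolar macrophages, phagocytes that live in the air spaces of the lung. They are the transcription factors Egr1, Egr2 and Egr3, their corepressors Nab1 and Nab2, the upstream factor Srf, and Ier2, Ier3 and Ier5. They were matched by symbol, and all 9 of 9 were found among the 23413 genes of the count table. Of these, 8 entered the tests among 10724 genes in all, and Egr3 had too few counts. The study compared wild-type macrophages collected fresh by lavage and, for the treated groups, cultured in vitro, in 3 groups of 2 RNA-seq libraries. The LPS + VD3 group received 100 ng/mL lipopolysaccharide (LPS), a bacterial membrane component, together with 50 nM vitamin D3 (VD3) for 4 h. The LPS group received the same LPS dose for 4 h, and the control group is labelled only as control. The labels do not give strain, age, sex, the culture time of the control cells or whether animals were pooled.

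Immediate early genes are transcribed within minutes of a stimulus, without new protein synthesis, and most of them shut off again soon after. Mitogen-activated kinases such as ERK phosphorylate ternary complex factors that sit with SRF on CArG boxes, and this switches on Egr and Ier genes. EGR proteins are zinc-finger activators that NAB1 and NAB2 bind and restrain. In mouse alveolar macrophages Egr2 is also known as a lasting factor of cell identity.

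The total counts ranged from 5022314 to 5465223 per library. The 7 alveolar macrophage markers in the table, led by Marco, summed to 10129 to 11845 CPM (counts scaled to library size, with TMM factors) in LPS + VD3. They summed to 9369 to 9993 CPM in LPS and 6555 to 6699 CPM in control. By the edgeR test of LPS against control, Marco, Car4 and Fabp4 were higher and Siglec5, Mrc1 and Pparg lower, and Itgax did not pass. Some defining markers of other cells were at 0 in every library (Sftpc and Scgb3a2 of epithelium, S100a9, Mpo, Elane and Retnlg of neutrophils, Cd3e, Nkg7 and Ncr1 of lymphocytes and Col3a1 of stroma), while others were present and moved with the groups. The summed epithelial markers moved with LPS (39.4 to 53.1 CPM in LPS + VD3, 33.7 to 37.8 in LPS and 223 to 240 in control), but the 9 other than Cdh1 held 1.03 to 3.38 CPM in every library. The summed monocyte markers moved too (183 to 211, 276 to 371 and 13.9 to 14.6 CPM in the same order), and apart from Vcan they held 1.88 to 10.9 CPM. The summed neutrophil markers, led by S100a8, held 28.1 to 34.1 CPM in LPS + VD3, 19.1 to 25.7 in LPS and 15.5 to 18.2 in control. The summed dendritic cell markers, led by Clec9a, held 15.1 to 15.5 CPM in LPS + VD3, 11.5 to 12.1 in LPS and 17.99 to 24.5 in control. This sum hides opposite moves. Clec9a was lower in the treated groups, at 4.82 to 6.57 CPM in LPS + VD3, 4.51 to 5.46 in LPS and 15.8 to 22.9 in control. The other dendritic cell markers together were higher there, at 8.96 to 10.3 CPM in LPS + VD3, 6.68 to 6.98 in LPS and at most 2.23 in control. Lymphocyte and stromal markers summed to at most 5.18 and 4.25 CPM in any library. The part of these shifts in the results below was not tested. The library number in the title of LPS 1 does not run on from those of the other 5, and the 2 LPS libraries stand apart from each other: their log2 difference followed transcript GC content across 10649 genes, with Spearman's rho of 0.655, against 0.18 in LPS + VD3 and 0.235 in control. Cyp24a1, the vitamin D receptor (VDR) target that inactivates vitamin D, had 112 and 124 counts in LPS + VD3, 0 in both LPS libraries and 2 and 3 in control. Because these are bulk samples, fewer cells that express a gene and less RNA per cell cannot be told apart. The labels do not say whether the replicates are separate mice, so the p-values reflect only how far these libraries differ, and that may be technical.

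Promoter windows from RefSeq (GRCm38.p6, the assembly of mm10) were matched by symbol for 6 of the 9 members. The windows below span the 250 bases before the transcript start and belong to the members on which the results turn: Egr2 and Nab1, which moved in opposite directions with LPS, Ier3, which rose most, Ier5, which fell with VD3, and Srf as the factor that binds CArG boxes. Capitals mark every match, on either strand, to the CArG box, the EGR site GCGTGGGCG, the cyclic AMP element TGACGTCA, the NF-kB consensus, TATAAA or the VDR direct repeat. No marked match overlaps another in these windows.
Egr2, chr10:67537619-67537868, plus strand: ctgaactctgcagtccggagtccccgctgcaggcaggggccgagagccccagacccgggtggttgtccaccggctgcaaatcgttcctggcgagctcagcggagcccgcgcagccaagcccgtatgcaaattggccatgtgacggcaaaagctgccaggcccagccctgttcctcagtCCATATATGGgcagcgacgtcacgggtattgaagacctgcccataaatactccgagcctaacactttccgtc
Nab1, chr1:52500449-52500698, minus strand: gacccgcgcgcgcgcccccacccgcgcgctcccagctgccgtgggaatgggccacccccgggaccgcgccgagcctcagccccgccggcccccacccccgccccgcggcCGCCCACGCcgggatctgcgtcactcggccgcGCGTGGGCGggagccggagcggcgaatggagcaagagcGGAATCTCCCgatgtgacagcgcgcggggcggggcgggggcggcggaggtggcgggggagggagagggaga
Srf, chr17:46556163-46556412, minus strand: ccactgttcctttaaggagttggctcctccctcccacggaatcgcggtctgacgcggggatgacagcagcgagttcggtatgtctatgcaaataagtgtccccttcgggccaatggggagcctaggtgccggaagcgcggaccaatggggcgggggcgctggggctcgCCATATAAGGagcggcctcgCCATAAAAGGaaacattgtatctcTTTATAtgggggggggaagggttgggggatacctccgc
Ier3, chr17:35821463-35821712, plus strand: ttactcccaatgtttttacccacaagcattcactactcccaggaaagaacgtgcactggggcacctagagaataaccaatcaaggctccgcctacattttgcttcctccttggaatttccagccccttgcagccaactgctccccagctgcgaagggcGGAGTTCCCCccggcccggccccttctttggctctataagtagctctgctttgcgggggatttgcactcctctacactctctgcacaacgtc
Ier5, chr1:155099637-155099886, minus strand: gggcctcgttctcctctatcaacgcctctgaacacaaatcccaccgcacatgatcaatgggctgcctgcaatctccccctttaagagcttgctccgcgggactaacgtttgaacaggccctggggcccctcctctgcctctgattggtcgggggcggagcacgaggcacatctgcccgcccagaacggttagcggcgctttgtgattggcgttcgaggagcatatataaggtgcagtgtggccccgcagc

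The Egr2 window holds 1 CArG box at positions -72 to -63 from the transcript start, and it is 1 of 5 windows listed for that gene. Of these 5, 4 hold a CArG box, and the one at chr10:67535249-67535498 holds none but has 2 overlapping NF-kB matches, at -117 to -108 and -116 to -107. The windows that start at 67537619, 67537620 and 67537680 overlap and hold the same CArG box, while the window that starts at 67537316 holds a different one. The Srf window holds 2 CArG boxes, at -82 to -73 and -62 to -53, and TATAAA on the reverse strand at -38 to -33. A CArG box stands in 1.47% of the 32851 windows of this length. The Nab1 window holds the EGR site on each strand, at -141 to -133 and -109 to -101, which 0.536% of windows hold at least once. It also holds an NF-kB match at -71 to -62, and the Ier3 window holds one at -92 to -83, as do 7.25% of windows. The Ier5 and Nab2 windows hold none of these letters. TATAAA stands in 12.4% of windows, TGACGTCA in 1.55% and the VDR repeat in 0.0396%, and no window of the 6 members holds the VDR repeat. A match describes the sequence and is no evidence of binding, and no match speaks only of these letters in these windows.

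On the mm10 build, Egr2 lies on chromosome 10 at 67535475 to 67542188 (plus strand), Egr1 on chromosome 18 at 34859823 to 34864984 (plus) and Egr3 on chromosome 14 at 70077203 to 70082614 (plus). Nab1 lies on chromosome 1 at 52457294 to 52500679 (minus) and Nab2 on chromosome 10 at 127660918 to 127668568 (minus). Srf lies on chromosome 17 at 46548329 to 46556175 (minus), Ier2 on chromosome 8 at 84661331 to 84662852 (minus), Ier3 on chromosome 17 at 35821684 to 35822923 (plus) and Ier5 on chromosome 1 at 155096361 to 155099636 (minus). All 9 are protein-coding genes. These spans come from GENCODE, while the promoter windows precede RefSeq transcript starts. The printed Egr2 window and the Nab2 window (127666704 to 127666953) lie wholly inside the spans, and the Nab1 window lies largely inside. For these genes the windows therefore do not cover the sequence before the GENCODE start. The exons of Nab2 share 40 bases with those of Stat6 on the opposite strand and 864 with the antisense gene Gm16229. No source used here gives the strand setting of the counting, so a part of the Nab2 counts may be reads of these neighbours. Stat6 itself differed little, at a log2 fold change of 0.22 in LPS against control and 0.13 in LPS + VD3 against LPS, and did not pass in either.

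The first comparison set 4 h of LPS against control. The labels do not give the culture time of the control cells, so LPS and culture cannot be told apart in either comparison with control. Wording such as a rise or fall with LPS names only the difference between these groups. Ier3 was 9.69-fold higher, Egr1 2.45-fold higher and Nab1 1.54-fold higher in LPS, while Egr2 was lower at 0.66 of its control level. Ier2, Ier5, Nab2 and Srf did not pass the test. By edgeR's quasi-likelihood test, 3 of 8 tested members rose and 1 fell, beside 31.8% of all genes tested that passed (15.7% higher, 16.2% lower). Library scaling matters for the whole table here: 49.2% of all calls were higher, but 26.2% when only library totals were used, which moved the median of all genes by -0.29 on the log2 scale. The 4 calls above kept their directions under that scaling, but Nab1 was no longer called (log2 fold change 0.33, edgeR adjusted p = 0.242). The libraries of both groups did not overlap in 6 of the 8 members, beside 65.2% of all genes. DESeq2 also called 3 members higher and 1 lower, and limma-voom 2 higher and 1 lower.

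**Figure D1:**
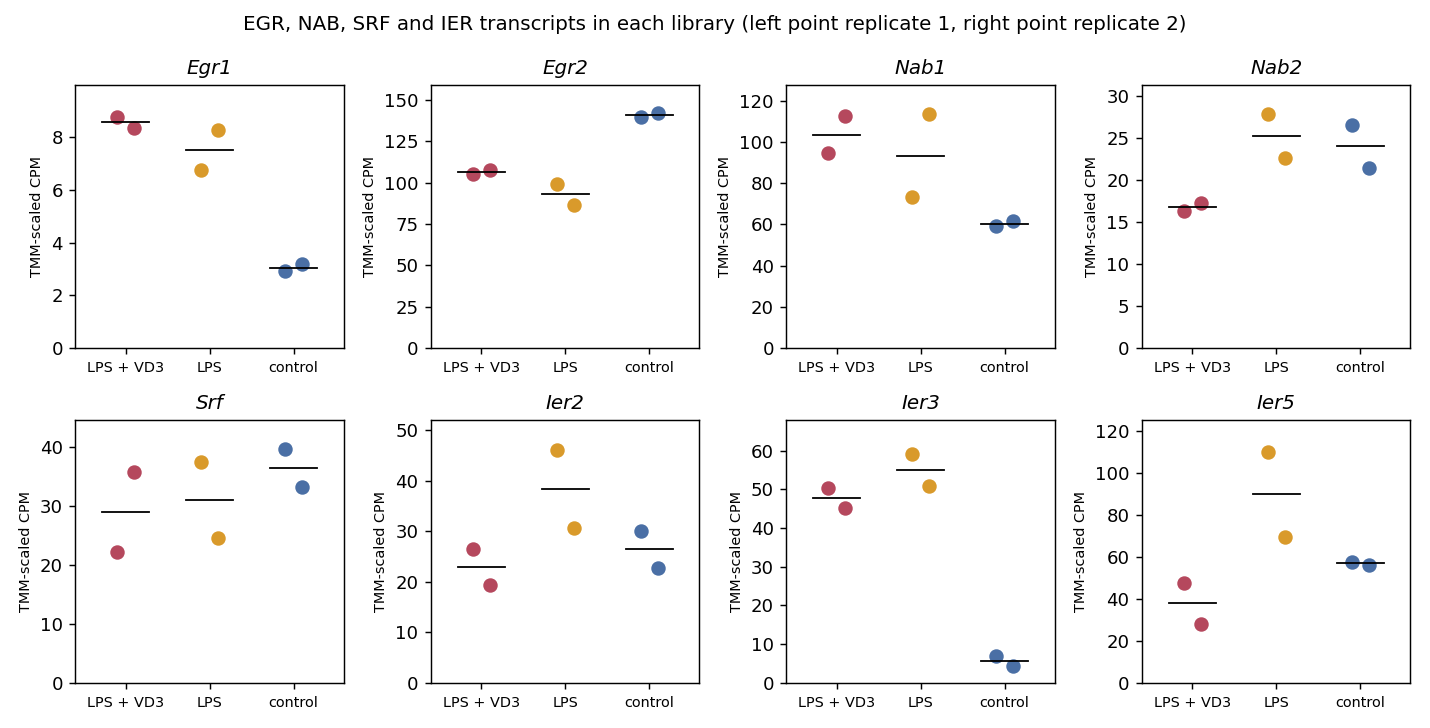
TMM-scaled CPM (vertical axis, from 0) of the 8 tested members in each library, by group; each point is 1 library and each line the mean of 2. Ier3 sits between 45.2 and 59.1 CPM in LPS + VD3 and LPS libraries and at most at 7.02 CPM in control, while Ier5 is lowest in LPS + VD3 and highest in LPS.

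Egr1, the prototype of the family and a classic ERK target, was scarce. It had 33 and 41 counts in LPS and 17 and 20 in control, which is 6.77 and 8.29 CPM against 2.91 and 3.21 CPM. Both LPS libraries lay above both control libraries. The log2 fold change was 1.29 ± 0.30 (SE; n = 2 libraries per group; edgeR adjusted p = 0.00789). The call was lost without control 1 (edgeR adjusted p = 0.0848) and without control 2 (0.0638), and in the deposited log2 table the change was 0.84.

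Egr2 was by far the most abundant EGR transcript and moved the other way. It had 99.3 and 86.8 CPM in LPS and 140 and 142 CPM in control, from 429 to 885 counts per library. The control libraries agree closely, and both LPS libraries lay below them. Egr2 fell by 0.60 on the log2 scale (SE 0.15, edgeR adjusted p = 0.0118). That call too was lost without control 1 (0.114) or control 2 (0.132), at changes of -0.61 and -0.59.

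Egr3, a close relative of Egr1 and Egr2, was at the edge of detection. It had 0 and 3 counts in LPS + VD3, 0 in both LPS libraries and 1 and 0 in control. A count of 0 over both LPS libraries allows a level of up to 0.306 CPM, a limit of counting error only. No fold is given, since every group was at or below 3 counts. Egr4, the remaining family member, had 0 counts in every library, and Ier5l, a relative of Ier5, had 2 counts over all libraries.

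Of the corepressors, Nab1 was called in LPS against control and Nab2 was not, and the difference between them was not tested. Nab1 had 73.1 and 113 CPM in LPS and 59.1 and 61.7 CPM in control, and its log2 fold change was 0.63 ± 0.21 (edgeR adjusted p = 0.0477). The LPS libraries were far apart, and both lay above control. The call held in 6 of 17 alternatives. It was lost without LPS 2 (change 0.27), control 1 (0.59), control 2 (0.66), LPS + VD3 1 (0.63) or LPS + VD3 2 (0.61). It was also lost with library totals alone and with no filter on low counts (edgeR adjusted p = 0.108). The same held with at least 10 counts in every library (edgeR adjusted p = 0.0511) and with only the compared libraries fitted (0.0849). Neither limma-voom (adjusted p = 0.0601) nor limma on the deposited log2 values (0.28) called it. Without LPS 1 the change was 0.89. Nab2, itself known as an EGR target gene in other cells, had 27.9 and 22.7 CPM in LPS and 26.6 and 21.5 CPM in control. These ranges overlap, and the change was 0.08 ± 0.20 (edgeR adjusted p = 0.815), with a negative sign under GC offsets and under library totals alone.

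Srf, the transcription factor upstream of the family, had 37.6 and 24.7 CPM in LPS and 39.7 and 33.2 CPM in control. The groups overlap, and the change was -0.23 ± 0.27 on the log2 scale (edgeR adjusted p = 0.558).

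Ier3, also called IEX-1, is a stress-induced regulator of cell survival and a known NF-kB target. It had 288 and 251 counts in LPS and 41 and 27 in control, which is 59.1 and 50.8 CPM against 7.02 and 4.33 CPM. The gap between the groups is many times the spread within them. The log2 fold change was 3.28 ± 0.25 (edgeR adjusted p = 5.3e-06), and the call held under all 17 alternatives, with values between 2.84 and 3.66.

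Ier2 and Ier5 encode related nuclear proteins, and neither passed. Ier2 had 46.0 and 30.5 CPM in LPS and 30.0 and 22.8 CPM in control, a log2 difference of 0.54 ± 0.25 (edgeR adjusted p = 0.134). Ier5, a cofactor of the heat shock factor HSF1, had 110 and 69.6 CPM in LPS and 57.6 and 56.3 CPM in control, a difference of 0.66 ± 0.26 (edgeR adjusted p = 0.086). For both genes the LPS libraries lay above the control libraries. Without LPS 2 both passed, at 0.80 for Ier2 (edgeR adjusted p = 0.00744) and 0.95 for Ier5 (0.00227), and without LPS 1 the differences were 0.20 and 0.27 (0.533 and 0.358).

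The gap between the LPS libraries bears on these values. Among the members, LPS 1 exceeded LPS 2 by 0.66 for Ier5, 0.61 for Srf, 0.59 for Ier2 and 0.30 for Nab2 (log2 CPM), and LPS 2 exceeded LPS 1 for Nab1 (-0.63) and Egr1 (-0.29). Srf, Ier2 and Nab2 transcripts hold 64.4%, 60.9% and 60.1% GC, higher than 99.7%, 98.0% and 97.0% of the tested genes. Nab1 is at 47.2% GC, higher than 39.7% of them. Ier5 is at 52.3% GC, higher than 66.2% of tested genes. Egr1, which was higher in LPS 2, is at 57.3% GC, higher than 89.9%. With offsets fitted to GC in each library, Egr1 (1.21), Egr2 (-0.58), Nab1 (0.70) and Ier3 (3.25) stayed called and Ier5 was called as well (0.65, edgeR adjusted p = 0.0262).

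**Figure D2:**
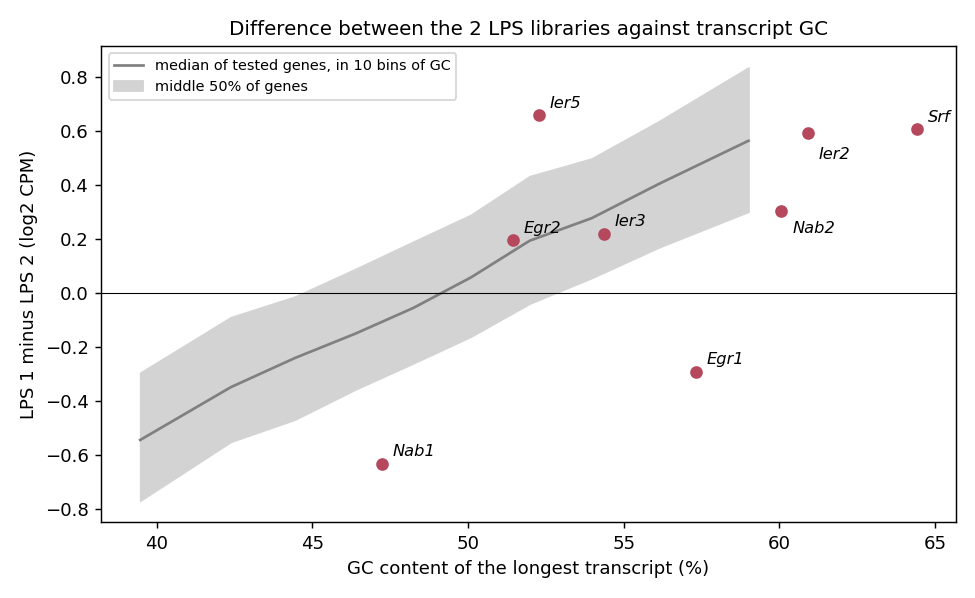
Difference between the 2 LPS libraries in log2 CPM (vertical axis) against GC content of the longest transcript in percent (horizontal axis); the line is the median of tested genes in 10 equal bins of GC, the band the middle 50% of genes, and the points are the tested members. The median runs from -0.55 in the lowest bin to 0.56 in the highest; Egr2 and Ier3 lie near the line, Ier5 above the band and Egr1 and Nab1 below it.

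The second comparison set VD3 given with LPS against LPS alone. Ier5 was 2.38-fold lower in LPS + VD3, and it was the only one of the 8 tested members that passed. Ier2 and Nab2 differed by -0.74 and -0.59 on the log2 scale and did not pass, and Egr1, Egr2, Nab1, Srf and Ier3 lay between -0.20 and 0.19. That is 0 members higher and 1 lower by edgeR, beside 3.83% of all genes tested (2.25% higher, 1.59% lower). DESeq2 and limma-voom gave the same counts, and at an unadjusted p under 0.05 edgeR had 0 members higher and 3 lower. The libraries did not overlap in 6 of 8 members, beside 48.1% of all genes.

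Ier5 had 227 and 141 counts in LPS + VD3 and 535 and 344 in LPS, which is 47.5 and 28.1 CPM against 110 and 69.6 CPM. Both LPS + VD3 libraries lay below both LPS libraries and below both control libraries (57.6 and 56.3 CPM). The log2 fold change was -1.25 ± 0.27 (SE, n = 2 libraries per group; edgeR adjusted p = 0.0347). The call held without LPS 1 (-0.89, edgeR adjusted p = 0.0332) and with GC offsets (-1.12, 0.00841). It was lost without LPS + VD3 1 (0.0853) or LPS + VD3 2 (0.365) and with no filter on low counts (0.144), with values of -1.67, -0.92 and -1.25.

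Ier2 had 26.4 and 19.3 CPM in LPS + VD3 and 46.0 and 30.5 CPM in LPS, a log2 difference of -0.74 ± 0.26 (edgeR adjusted p = 0.141). Nab2 had 16.3 and 17.3 CPM in LPS + VD3 and 27.9 and 22.7 CPM in LPS, a difference of -0.59 ± 0.21 (edgeR adjusted p = 0.156). In both genes the LPS + VD3 libraries lay below the LPS libraries. Both are GC-rich, and with GC offsets the differences were -0.27 and -0.16 (edgeR adjusted p = 0.389 and 0.662). Without LPS 2 both passed, at -1.01 and -0.72 (0.00372 and 0.0186). That fit rests on LPS 1 alone in its group and takes its spread from the other groups.

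Egr1 had 8.79 and 8.36 CPM in LPS + VD3 and 6.77 and 8.29 CPM in LPS (0.19 ± 0.26, edgeR adjusted p = 0.704). Egr2 had 105 and 108 CPM in LPS + VD3 and 99.3 and 86.8 CPM in LPS (0.19 ± 0.15, edgeR adjusted p = 0.466). Ier3 had 50.2 and 45.2 CPM in LPS + VD3 and 59.1 and 50.8 CPM in LPS (-0.20 ± 0.20, edgeR adjusted p = 0.573). In these 3 genes the groups did not overlap, but the gap between them was smaller than the distance between the LPS libraries. Nab1 had 94.4 and 112 CPM in LPS + VD3, between its 73.1 and 113 CPM in LPS (0.15 ± 0.21, edgeR adjusted p = 0.698); without LPS 2 it passed, at 0.51 (0.0249). Srf had 22.2 and 35.8 CPM in LPS + VD3 and 37.6 and 24.7 CPM in LPS (-0.10 ± 0.27, edgeR adjusted p = 0.856). Its sign turned to 0.52 with GC offsets.

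**Figure D3:**
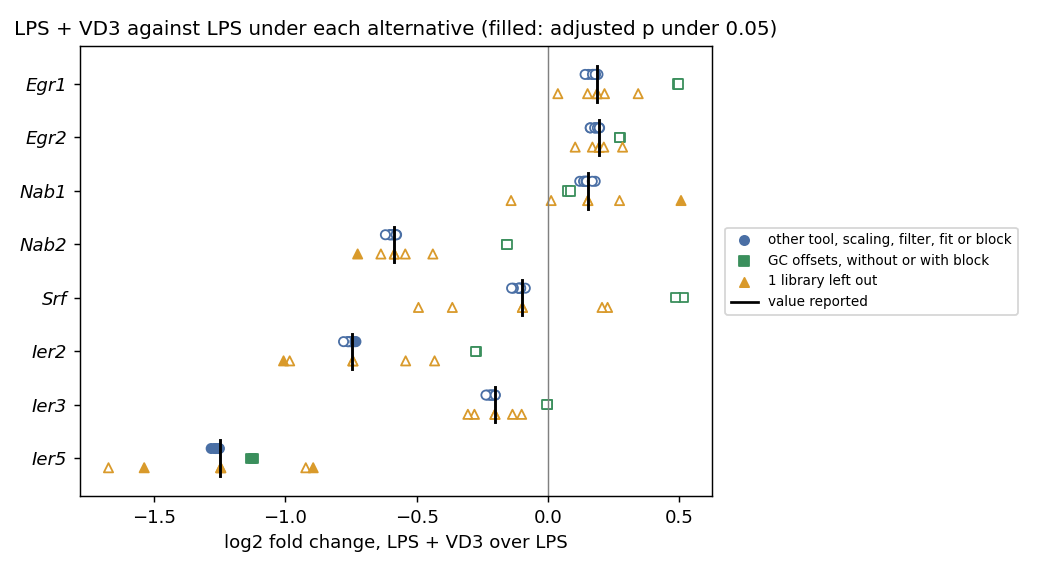
Log2 fold change of LPS + VD3 over LPS (horizontal axis) for each tested member under the 17 alternatives; the black bar is the value reported, and filled symbols passed at an adjusted p under 0.05. Ier5 is negative throughout, from -1.67 to -0.89, and Srf and Nab1 have values on both sides of 0.

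LPS + VD3 against control shares its libraries with the comparisons above, so its values stand beside theirs and are no independent support. Ier3, Egr1 and Nab1 were higher in LPS + VD3 and no member was lower by the edgeR test, beside 35.0% of all genes that passed (17.7% higher, 17.3% lower). At an unadjusted p under 0.05 edgeR had 3 members higher and 2 lower, and DESeq2 and limma-voom called 3 higher and 0 lower. Of all calls 50.5% were higher, and 25.9% with library totals alone, which moved the median of all genes by -0.33. The log2 fold change was 3.07 ± 0.25 for Ier3 (edgeR adjusted p = 7.79e-06) and 1.48 ± 0.29 for Egr1 (0.00321), both called under all 17 alternatives. Nab1 was at 0.78 ± 0.21 (edgeR adjusted p = 0.0175), with 94.4 and 112 CPM in LPS + VD3 and 59.1 and 61.7 CPM in control. Its call was lost without LPS + VD3 1 (0.0537), LPS + VD3 2 (0.171), control 1 (0.12) or control 2 (0.0896), and its change was 0.45 with library totals alone (0.108).

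Egr2 had 105 and 108 CPM in LPS + VD3 and 140 and 142 CPM in control, a difference of -0.41 ± 0.15 that did not pass (edgeR adjusted p = 0.0586) and passed in 8 of 17 alternatives. Ier5 was at -0.59 ± 0.27 (edgeR adjusted p = 0.12), Nab2 at -0.51 ± 0.21 (0.0876), Srf at -0.33 ± 0.27 (0.372) and Ier2 at -0.21 ± 0.26 (0.567). Ier5 passed in 7 of 17 alternatives and ran from -1.02 without LPS + VD3 1 to -0.29 without LPS + VD3 2. Nab2 passed in 5 of 17 and was at -0.21 with GC offsets. In 6 of 8 members the libraries did not overlap, beside 75.8% of all genes.

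**Figure D4:**
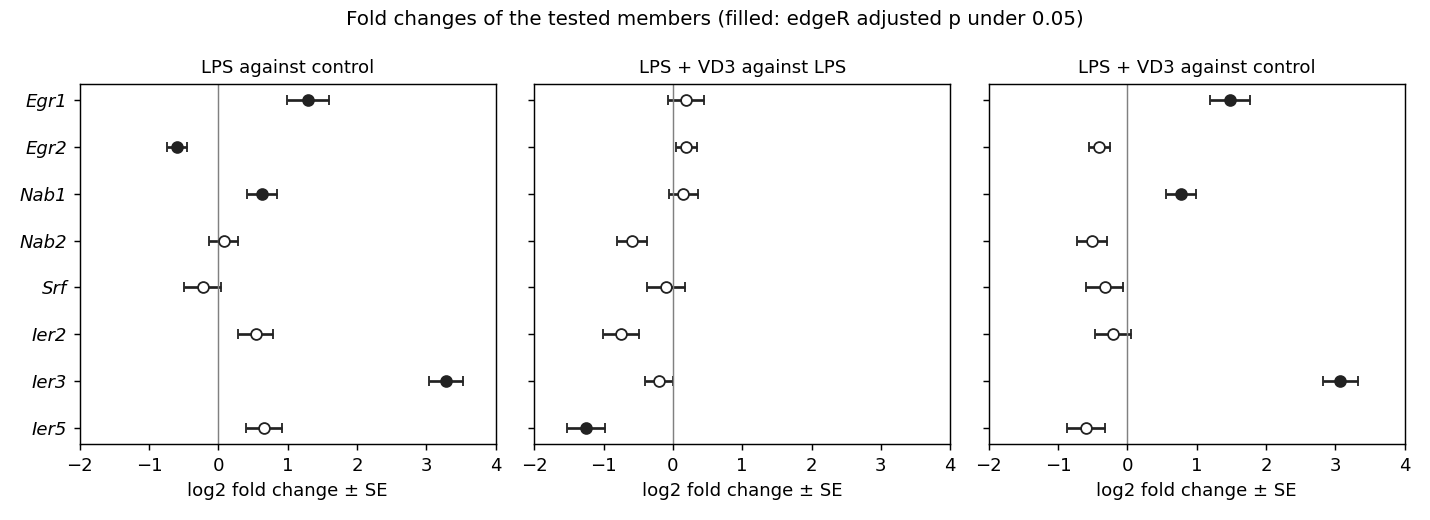
Log2 fold change with its SE (horizontal axis) of the 8 tested members in the 3 comparisons, from a single edgeR fit of 6 libraries; filled points passed at an adjusted p under 0.05. Ier3 stands near 3 in both comparisons with control, Egr1 near 1.3 to 1.5, and Ier5 is the filled point in LPS + VD3 against LPS.

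Levels per length put the members in a different order in each group. As CPM per kilobase of exon, Egr2 led in control with 43.9 and 44.5, and Ier3 led in LPS + VD3 (44.4 and 40.0) and in LPS (52.3 and 44.9). In control, Ier3 at 6.21 and 3.83 was only above Egr1 and Egr3. Also in control, Ier5, Ier2, Nab1 and Srf lay between 12.7 and 19.7 and each overlapped its neighbour in the order. In LPS, Egr2 (31.2 and 27.2), Ier5 (33.5 and 21.2), Ier2 (30.2 and 20.1) and Nab1 (18.2 and 28.2) overlapped. In LPS + VD3, Ier3, Egr2 (mean 33.4), Nab1 (mean 25.7) and Ier2 (17.3 and 12.7) did not overlap, while Ier2, Ier5 (14.5 and 8.57) and Srf (8.48 and 13.7) did. Egr1 was second to last in all 3 groups, at 1.96 and 1.86 in LPS + VD3, 1.51 and 1.85 in LPS and 0.65 and 0.715 in control.

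Ratios within a library follow from these levels and carry no test. Egr2 per kilobase exceeded Egr1 by 16.8 and 18.1 times in LPS + VD3 and by 20.6 and 14.7 times in LPS, against 67.6 and 62.3 times in control. Nab1 exceeded Nab2 by 3.71 and 4.17 times in LPS + VD3, by 1.68 and 3.21 times in LPS and by 1.43 and 1.84 times in control. The Nab1 to Nab2 ratio was thus highest in both LPS + VD3 libraries, and it pairs a transcript of moderate GC with a GC-rich one.

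Genes with the most similar profile were taken as those with the smallest Euclidean distance of centred log2(CPM + 0.5) over the 6 libraries, among genes with a mean log2 CPM of at least 2. The members themselves and genes with placeholder symbols, such as Gm numbers, Rik and LOC, were left out. Nearest to Egr1 were Snx10 (distance 0.0655), Tnfaip8 (0.0703) and Rabgef1 (0.0937). Nearest to Egr2 were Slc35e1 (0.0815), Fam96a (0.137) and Uhrf1bp1 (0.15), and nearest to Nab1 were Ppip5k2 (0.104), Shoc2 (0.109) and Cep170 (0.127). The neighbours of Nab2 were Cc2d1b (0.147), Adck2 (0.169) and Fam134a (0.183), those of Srf were Eif4ebp3 (0.201), Pmf1 (0.223) and Mrps6 (0.228), and those of Ier2 were Flywch1 (0.145), Timm13 (0.165) and Pelp1 (0.169). Ier3 came closest to Procr (0.335), Ddx58 (0.399) and Il20rb (0.464), and Ier5 to Slc35e4 (0.205), Adprhl2 (0.25) and Pafah1b3 (0.289). The smallest distance between members was 0.617, between Nab2 and Ier2. It cannot be set against the distances above, since each member had few other members to match but a far larger pool of other genes.

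The share of genes called in each list below is to be read beside that over all genes, 15.7% higher and 16.2% lower in LPS against control and 2.25% higher and 1.59% lower in LPS + VD3 against LPS, and enrichment was not tested. Of 20 tested genes of the ERK and p38 cascades, 7 rose with LPS and 0 fell by the edgeR test (9 and 3 at an unadjusted p under 0.05, and the same 7 and 0 counts with DESeq2 and limma-voom). Their median log2 fold change was 0.27, beside 0.0062 over all genes. Mapkapk2, the p38-activated kinase, had 1214 and 944 CPM in LPS and 272 and 252 CPM in control (2.04 ± 0.17, edgeR adjusted p = 9.97e-06). Map3k8, also called TPL2, the kinase that links TLR signals to ERK, was at 1.82 ± 0.17, Mapk14, the p38 alpha kinase, at 1.55 ± 0.15 and the kinase Rps6ka4 at 1.40 ± 0.21. In LPS + VD3 against LPS 0 rose and 2 fell by edgeR (2 and 5 at an unadjusted p under 0.05, 0 and 2 with DESeq2, 0 and 1 with limma-voom), with a median of -0.025. Map2k3, the kinase that activates p38, had 45.9 and 46.2 CPM in LPS + VD3 and 98.3 and 78.1 CPM in LPS (-0.94 ± 0.17, edgeR adjusted p = 0.0139, but 0.134 and 0.189 without LPS + VD3 1 or 2). Rps6ka4 was at -0.88 ± 0.20 (edgeR adjusted p = 0.0453), and at -0.43 (0.0845) with GC offsets, and passed in 8 of 17 alternatives.

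Of 7 tested feedback inhibitors of ERK, 4 rose with LPS and 1 fell (3 and 1 with DESeq2, 4 and 1 with limma-voom), with a median of 1.55. Spred1, an inhibitor of RAS and RAF signalling, rose by 1.66 ± 0.19. The MAP kinase phosphatases Dusp4 and Dusp1 rose by 3.28 ± 0.45 and 1.55 ± 0.28, and Dusp5, a nuclear phosphatase of ERK, was at -1.25 ± 0.31, a call lost without control 1 (edgeR adjusted p = 0.123). The Dusp4 change rests on few control reads, with 39 and 34 counts in LPS and 2 and 7 in control. With VD3 0 of 7 passed by edgeR or limma-voom, DESeq2 called 1 lower, and at an unadjusted p under 0.05 edgeR had 2 higher and 3 lower (median -0.35). The 5 tested cofactors of SRF, which are Elk1, Elk3, Elk4, Mkl1 and Mkl2, gave 0 calls in both comparisons by edgeR, DESeq2 and limma-voom, and 0 at an unadjusted p under 0.05. Their medians were 0.15 with LPS and 0.13 with VD3. Of 16 tested cytoskeletal SRF targets 5 rose with LPS and 0 fell by edgeR (5 and 2 at an unadjusted p under 0.05, 5 and 0 with DESeq2, 5 and 1 with limma-voom; median 0.30). Vcl, the adhesion protein vinculin, was at 1.06 ± 0.16, Fhl3 at 1.17 ± 0.21, the tropomyosin Tpm4 at 0.64 ± 0.15 and zyxin, Zyx, at 0.94 ± 0.24. The Tpm4 and Zyx calls were lost without control 1 (edgeR adjusted p = 0.117 and 0.0731) or control 2 (0.0956 and 0.0719) and with library totals alone (0.0833 and 0.0601). With VD3, 0 rose and 2 fell by edgeR (0 and 6 at an unadjusted p under 0.05, 0 and 3 with DESeq2, 0 and 0 with limma-voom; median -0.21): Fhl3 at -0.91 ± 0.21 (edgeR adjusted p = 0.0465) and Zyx at -1.03 ± 0.25 (0.0488). Both calls ended without any single library other than LPS 2, and with GC offsets Fhl3 was at -0.58 (0.0767).

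Of 24 other immediate early genes tested, 16 rose with LPS and 6 fell (16 and 4 with DESeq2, 16 and 5 with limma-voom), and the median was 0.94. Gadd45b, a stress and growth arrest gene, was at 5.23 ± 0.31 (81.7 and 56.8 CPM in LPS against 2.40 and 1.28 CPM in control). The kinase Plk2 was at 3.19 ± 0.18 and the stress factor Atf3 at 1.88 ± 0.17. Klf4, a monocyte lineage factor, had 2.26 and 2.23 CPM in LPS and 103 and 120 CPM in control (-5.62 ± 0.28). The nuclear receptor gene Nr4a3, named after its values were seen, had 154 counts over the LPS libraries and 0 in control, at least 63.2-fold higher against a floor of 3 counts over the group. With VD3 1 rose and 2 fell by edgeR (5 and 5 at an unadjusted p under 0.05, 3 and 4 with DESeq2, 1 and 2 with limma-voom), and the median was 0.025. Myc, the growth regulator, had 47.7 and 62.7 CPM in LPS + VD3 and 23.8 and 19.2 CPM in LPS (1.36 ± 0.21, edgeR adjusted p = 0.00601), a call lost without LPS + VD3 2 (0.117). Klf6 was at -0.93 ± 0.16 (edgeR adjusted p = 0.0122) and Maff, a small MAF protein, at -0.90 ± 0.19 (0.0306). The Klf6 call was lost without LPS + VD3 1 or 2 (0.136 and 0.175), and the Maff call also without control 1 or 2 (0.127, 0.337, 0.0739 and 0.0744).

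**Figure D5:**
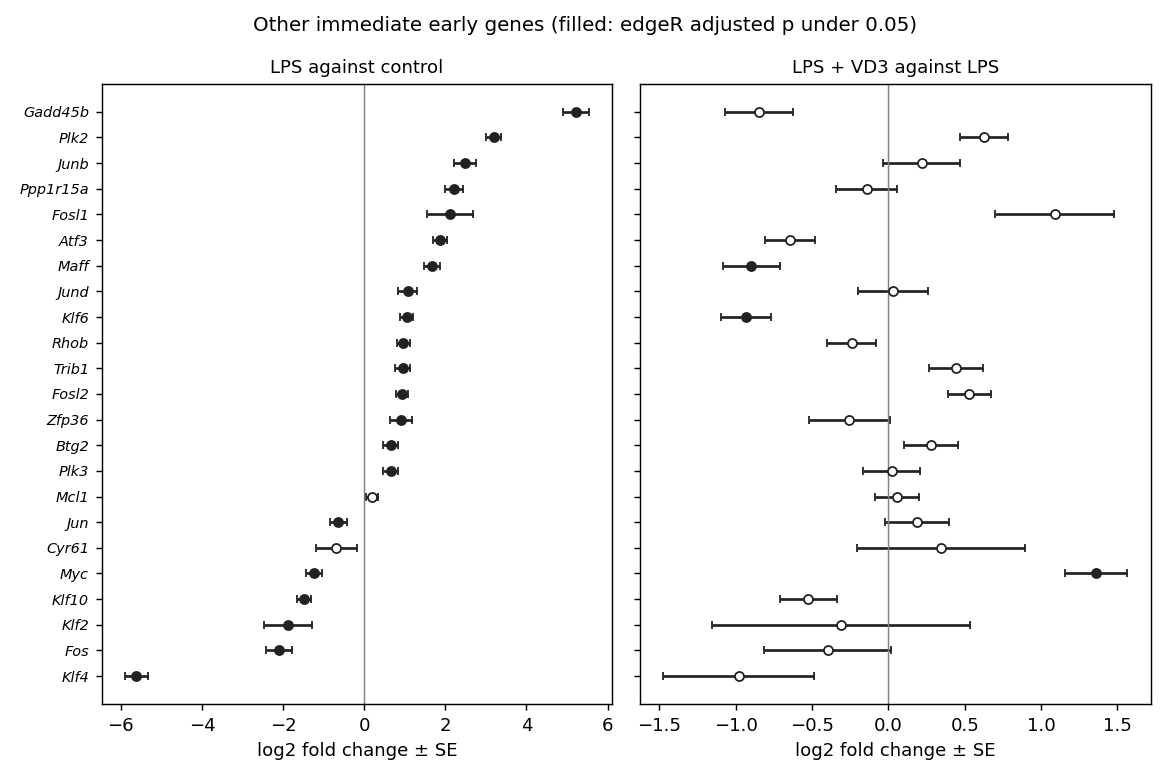
Log2 fold change with its SE (horizontal axes, on different scales) of 23 other immediate early genes in LPS against control and in LPS + VD3 against LPS; filled points passed the edgeR test at an adjusted p under 0.05. Nr4a3, which had 0 counts in control, is not plotted. Among the genes plotted, Gadd45b and Plk2 lead those higher in LPS and Klf4 those lower, while with VD3 only Myc, Klf6 and Maff are filled.

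Egr2 stands among identity factors of these cells, and 9 of 14 tested identity genes fell with LPS and 3 rose, with a median of -0.79. The TGF-beta receptors Tgfbr1 and Tgfbr2 were at -2.34 ± 0.24 and -2.11 ± 0.15, and the keratin Krt79 at -1.79 ± 0.19, while the scavenger receptor Marco was at 1.29 ± 0.15. With VD3 1 of 14 rose and 0 fell by edgeR, DESeq2 and limma-voom (3 and 1 at an unadjusted p under 0.05; median 0.12). That gene was Tgfbr2, with 465 and 457 CPM in LPS + VD3 and 90.5 and 99.3 CPM in LPS (2.28 ± 0.15, edgeR adjusted p = 3.93e-05). Egr2 was at 0.19 ± 0.15 in that comparison.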

How the data were processed

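RNA-seq libraries of 6 samples were analysed, 2 in each of 3 groups taken from the labels. Per the labels' protocols, RNA came from the RNeasy Micro kit and libraries from the KAPA mRNA HyperPrep kit. The deposited table of the authors holds whole-number counts per gene; TopHat2, edgeR and mm10 are listed, without versions, per the submitters' processing notes, and no source used here gives the counting program, annotation or strand setting. The deposited second table holds log2 values, which on checking equal log2(CPM + 1) of the counts within 0.00423 over 10327 matched genes; it served in an alternative only.

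The test was edgeR 4.0.16 (R 4.3.3): filterByExpr (minimum count 10, minimum total 15), TMM scaling and a quasi-likelihood fit of 3 group means over 6 libraries (3 residual and 7.01 prior degrees of freedom). p-values were adjusted by Benjamini-Hochberg over all 10724 genes and called at 0.05. The SE is the size of the log2 fold change over the square root of F. CPM values are TMM-scaled. Alternatives were DESeq2 1.42.0, limma-voom (limma 3.58.1), other scalings and filters, GC offsets (lowess, span 0.3), a replicate block and each library left out. The fit was tested on simulated data with the same dispersion in all libraries and no trend with GC. That test therefore does not cover the unequal noise of the groups or the GC trend between the LPS libraries. GC content, exon lengths and gene coordinates came from GENCODE M21, promoters from RefSeq. Replicates differed beyond counting noise in each group. The chi-square over its degrees of freedom was 2.45 in control, 25.3 in LPS and 9.64 in LPS + VD3, while the fit shares its estimate of the spread over all groups. Intervals and floors cover counting error only. Named genes are all members, up to 4 genes per list and comparison with the smallest p among those called, and the 3 nearest profiles per member. Members and lists were chosen with earlier results of these data known.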

Additional observations from a re-analysis of the deposited data

How the results depend on the processing

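Over the members, 336 of 408 alternative values kept their direction and their side of the threshold, 25 lost a call, 30 gained one and 17 changed sign, none of those 17 called. For the count of genes in LPS + VD3 against LPS (411), the value was 169 with no filter, 258 when only the 4 libraries compared were fitted, 763 with GC offsets and 1301 with GC offsets and the replicate block. Leaving out 1 library gave between 55 (without LPS + VD3 2) and 3669 genes (without LPS 2) there, 1940 to 4827 in LPS against control (3411) and 2126 to 5408 in LPS + VD3 against control (3749). The lowest counts in the comparisons with control came without control 2 (1940) and control 1 (2126). The count of members called ranged over these from 0 to 4, 1 to 5 and 2 to 6. With no filter 0 members passed in LPS + VD3 against LPS. In LPS + VD3 against control 5 passed with library totals only, in the deposited log2 values and with the block and GC offsets, and 6 when only the libraries compared were fitted. A lone library in a group is assumed to vary like the other groups.

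Each library given VD3 is labelled with the number of an LPS library, but no label says what an equal number shares. Same-numbered libraries correlated at 0.172, 0.0894 and 0.196 in their deviations from group means, which does not show pairing in any pair of groups. Replicate 1 minus replicate 2 followed GC with a positive sign in each group (Spearman's rho 0.235 in control, 0.655 in LPS and 0.18 in LPS + VD3). Such a shared trend can enter these correlations, and its part was not tested. With the replicate block 3986, 1148 and 4432 genes passed in the 3 comparisons, in the order LPS against control, LPS + VD3 against LPS, LPS + VD3 against control, and 6, 2 and 5 members. In LPS + VD3 against LPS the second member was Ier2 (-0.74, edgeR adjusted p = 0.022).

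Signs changed for Nab2 in LPS against control (-0.22 with library totals, -0.20 in the deposited values, -0.056 with GC offsets, -0.060 with block and GC offsets, -0.10 to 0.23 with 1 library left out, negative without LPS 1 or control 2) and for Srf there (-0.58 without LPS 1 to 0.043 without LPS 2). In LPS + VD3 against LPS they changed for Srf (0.52 with GC offsets, 0.49 with block and GC offsets, -0.49 without LPS + VD3 2 to 0.23 without LPS 1, and 0.21 without LPS + VD3 1) and Nab1 (-0.14 without LPS 1 to 0.51 without LPS 2). In LPS + VD3 against control they changed for Srf (0.072 and 0.039 with GC offsets, without and with the block) and Ier2 (0.10 and 0.10 likewise, and -0.45 without LPS + VD3 1 to 0.0019 without control 1). The cause was not tested. Depth kept Egr3 out of the tests, and Egr1 had 17 to 42 counts per library.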
